A study of Mus musculus with 7 samples.

Results

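The complement system was examined in regenerating mouse liver through 32 listed genes of its components, regulators and receptors. Members were all probes whose gene symbol in the platform annotation was one of the listed names. A probe was found for 30 of the 32, 51 probes in all, among the 19057 named genes on the array. C3, the central component of all pathways, and Cfd, the adipsin gene, were not analysed here. Of the 30 genes, 27 lay above background on at least 3 arrays and were tested, through 43 probes. C1ra, C3ar1 and C5ar1 were not above background on enough arrays.

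Complement is a cascade of plasma proteins, most of them made by hepatocytes, that marks targets for removal and can pierce membranes. The classical pathway starts from C1q bound to the proteases C1r and C1s, the lectin pathway from mannose-binding lectins and ficolins bound to the MASP proteases, and the alternative pathway amplifies both through factor B and properdin. All of them cleave C3 and then C5, which leads to a membrane attack complex of the terminal components. C1q differs from most components in that it comes largely from macrophages, in liver from Kupffer cells. In rodent liver, the peptides released from C3 and C5 are known to take part in the start of regeneration after resection.

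Whole liver samples of a pair of groups were compared, both of C57BL/6 mice and both taken 12 h after partial hepatectomy (PHx), in which liver lobes are cut away so that the rest regrows. The 4 KO samples carried a knockout of Ltbr, the lymphotoxin beta receptor gene, and the 3 WT samples were wild type. The sources used here do not give the allele, sex, age or breeding of the controls, nor whether samples stem from different mice, so the p-values describe only the variation among these arrays, which may be technical. No liver without PHx was part of the series, so a difference that existed before the operation and one that arose during regeneration cannot be told apart. In whole tissue, a change in the number of cells of a type and a change in RNA per cell cannot be told apart either.

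Values are log2 intensities of single-colour Illumina bead arrays after background correction, on which background ends at about 4.99. Ltbr itself had 5.86, 6.23, 6.08 and 5.61 in KO, against 6.63, 7.04 and 7.28 in WT. Every KO sample was below every WT sample, with a log2 difference of -1.04 (KO minus WT, standard error (SE) 0.20) and an adjusted p of 0.088. Of 13193 genes or unnamed probes tested, 9 passed an adjusted p under 0.05, which is 0.0682%. The arrays KO replicate 3 and WT replicate 3 stood apart: on the second principal component, which held 26.2% of the variance, they lay at 36.8 and -25.3, against -7.31 to 5.48 for the other 5 arrays. Values without them are given after the terminal components.

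None of the 27 tested complement genes passed an adjusted p under 0.05 between the genotypes, 0% against 0.0682% of all genes (0.00758% higher and 0.0606% lower in KO). The smallest adjusted p was 0.16, for C1rl. At an unadjusted p under 0.05 there were 3 members, 11.1% against 14.8% of all genes tested. These were C1rl and C4a, with lower KO means, and Cfp, with a higher one. In 1 member, C4b, the 4 KO values did not overlap the 3 WT values, 3.7% against 13.1% of all genes. With all arrays and the brightest probe of each gene, the member counts were thus no higher than the background of this comparison. They depended on the setting, as given in the last section. The 95% intervals of the log2 differences lay within -1 and 1, a 2-fold change either way, for 21 of the 27, and their half-widths ran from 0.34 to 0.65.

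By source, the members lay on different sides of 0. Of the 19 liver-made soluble components tested, 17 had a lower mean in KO and 2 a higher one, with a median log2 difference of -0.19 and a range from -0.82 to 0.07. These genes share the same arrays, so their directions are not separate observations. By sample, the mean log2 intensity of the 19 overlapped, at 9.97 to 10.27 in KO and 10.10 to 10.47 in WT. Their summed intensity overlapped too, at 32230 to 42880 in KO and 37170 to 45430 in WT. Of the 5 tested C1q and myeloid genes, 4 had a higher mean in KO, with a median of 0.31 and a range from -0.03 to 0.64. The median was 0.14 without KO replicate 4 and 0.19 without WT replicate 3. Over all genes tested, 45.7% lay below 0 and the median was 0.03. Hepatocyte markers, measured in 20 of 21, had 15 members below 0 and a median of -0.05. Their differences ran from -0.71 to 0.34. Their summed intensity, which rests mostly on the brightest of them, was 201600 to 216000 in KO and 212700 to 225200 in WT, so the ranges overlapped. Their mean log2 intensity overlapped too, at 11.56 to 11.77 in KO and 11.59 to 11.90 in WT. The part of hepatocyte content in the complement differences was not tested.

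**Figure D1:**
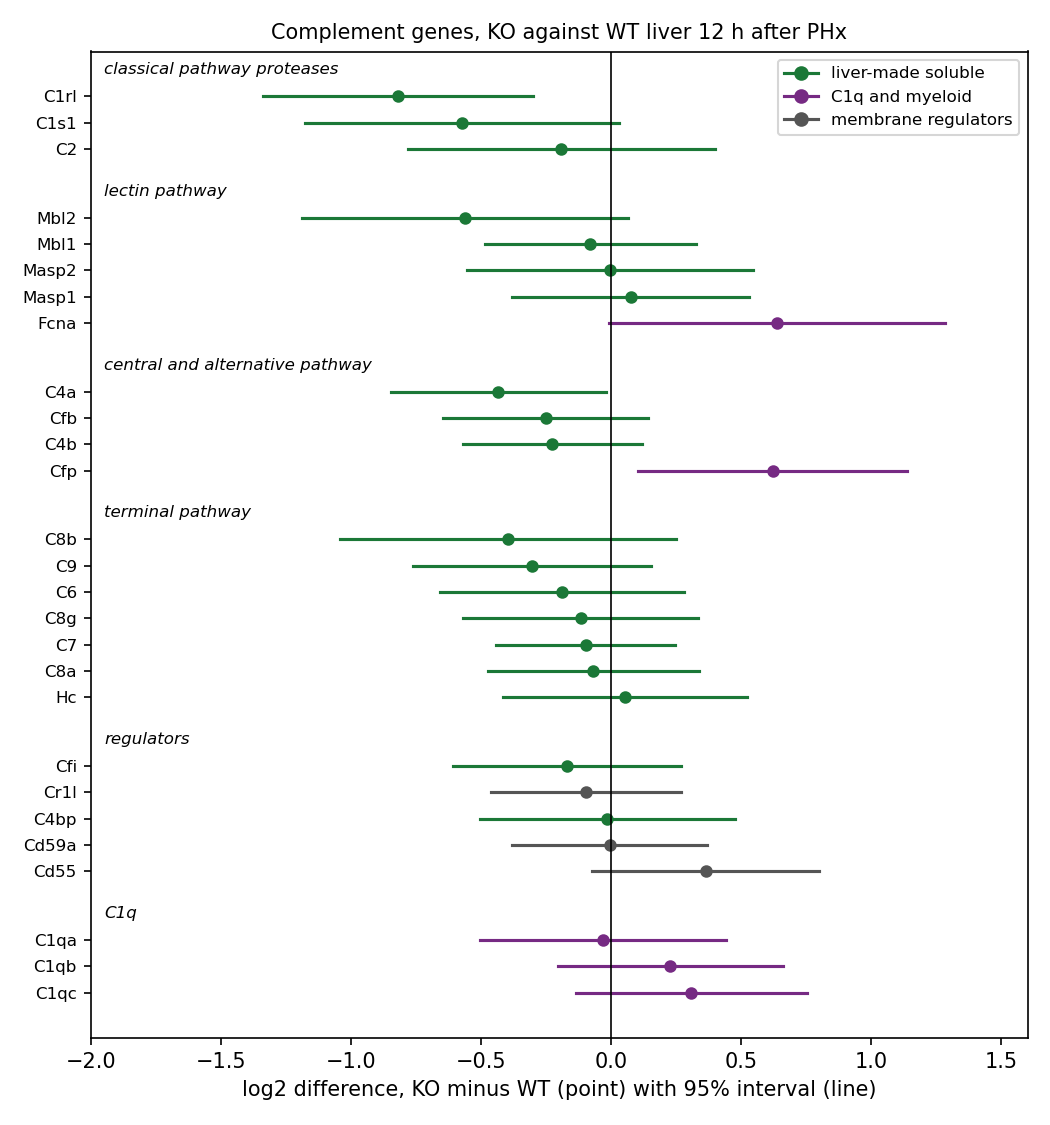
Log2 difference between KO and WT (horizontal axis, KO minus WT) of the 27 tested complement genes, ordered by role, with points for the estimate and lines for the 95% interval. Green liver-made components lie mostly left of 0 (17 of 19) and violet C1q and myeloid genes mostly right of it (4 of 5), and none passed the adjusted threshold.

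The classical pathway proteases had the member of smallest p. C1rl, which encodes a C1r-like serine protease, had 6.16, 6.02, 5.86 and 6.91 in KO, against 6.87, 7.07 and 7.24 in WT. KO replicates 1 to 3 were below all WT samples and KO replicate 4 was level with the lowest of them. The log2 difference was -0.82 (SE 0.24, 95% interval -1.34 to -0.30, adjusted p = 0.16), and the other probe gave -0.42 (SE 0.25). With array weights, which weigh each array by how well it follows its group, C1rl passed at -0.80 (adjusted p = 0.037), in a fit that called 7.24% of all genes. C1s1, the gene of the C1s protease, had 7.38, 7.16, 6.59 and 7.41 in KO, against 7.71, 8.29 and 7.12 in WT. The groups overlapped through WT replicate 3, and both of its probes gave nearly the same difference, -0.57 (SE 0.28, adjusted p = 0.36) and -0.55 (SE 0.27). It was -0.28 without WT replicate 2 and -0.87 without WT replicate 3.

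C2, the protease of the classical and lectin C3 convertase, had 9.61, 9.77, 10.20 and 9.93 in KO, against 10.65, 10.20 and 9.36 in WT. WT replicates 1 and 3 enclosed all KO values, and the difference of -0.19 (SE 0.27, adjusted p = 0.80) turned to 0.10 without WT replicate 1. The 2 probes of C1ra, the gene of the C1r protease, were above background on 0 of the 7 arrays, so no difference was measured for it.

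C1rl, C1ra and C1s1 lie side by side on chromosome 6, 38 to 40 protein-coding genes from Ltbr in the RefSeq order of GRCm38.p6, and C3ar1 lies 63 from it. Counted in tested genes, C1rl was 28 and C1s1 27 from Ltbr, on the side of Mug2 and Mug-ps1, the murinoglobulin genes with the largest differences nearby (-4.73 and -3.63). C1s2, another C1s gene, was 26 tested genes away and had a difference of -0.09 (SE 0.16, adjusted p = 0.85). Among the 100 tested genes within 50 of Ltbr, 3 passed the threshold, against 0.0682% of all genes tested. Groups did not overlap in 18% of them, against 13.1% of all genes. In this window 47 genes lay below 0, against 45.7% of all genes, and the median was 0.02. For C1rl and C1s1, an effect of the lost receptor and one of DNA linked to the Ltbr locus cannot be told apart.

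**Figure D2:**
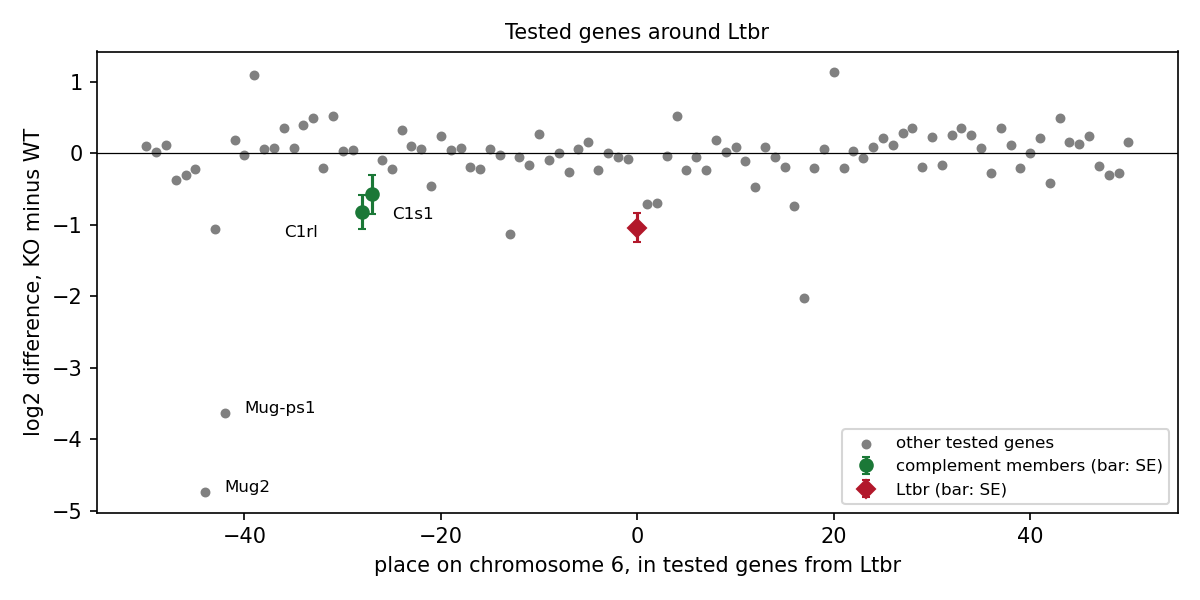
Log2 difference between KO and WT (vertical axis, KO minus WT) of the tested genes on chromosome 6, by their place in tested genes from Ltbr (horizontal axis). C1rl and C1s1 (green, bars are SE) lie at -0.82 and -0.57 among neighbours that mostly lie near 0, with Mug2 and Mug-ps1 far below on the same side of Ltbr (red diamond).

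The lectin pathway members lay on both sides of 0. Mbl2, the gene of a mannose-binding lectin (MBL-C) made by hepatocytes, had 9.81, 10.04, 10.21 and 9.30 in KO, against 11.05, 10.33 and 9.83 in WT. The groups overlapped through WT replicate 3, and the difference of -0.56 (SE 0.29, adjusted p = 0.39) was -0.24 without WT replicate 1 and -0.85 without WT replicate 3. Its relative Mbl1 had 10.01, 10.06, 10.40 and 10.30 in KO, against 10.31, 10.56 and 9.96 in WT. All KO values of Mbl1 lay within the WT range, and the difference was -0.08 (SE 0.19, 95% interval -0.49 to 0.32).

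Fcna encodes ficolin A, a soluble pattern recognition protein that in mice is made by macrophages as well as in liver. It had 9.35, 9.65, 8.68 and 9.83 in KO, against 8.22, 8.74 and 9.27 in WT. KO replicates 1, 2 and 4 were above all WT samples and KO replicate 3 was below WT replicates 2 and 3. The difference of 0.64 (SE 0.29, 95% interval -0.01 to 1.28, adjusted p = 0.35) was 0.37 without WT replicate 1.

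Masp1 and Masp2, the protease genes of the lectin pathway, had brightest probes close to 0. Masp1 had 9.92, 9.79, 10.44 and 10.35 in KO, against 9.80, 9.9985 and 10.37 in WT, with complete overlap and a difference of 0.07 (SE 0.21). Its 2 other probes, annotated to other transcripts, gave 0.38 (SE 0.18) and -0.18 (SE 0.18). Masp2 had 10.59, 10.73, 11.33 and 10.62 in KO, against 11.14, 11.08 and 10.25 in WT, and a difference of -0.01 (SE 0.25). That probe is annotated to a different transcript from the other 3. The dimmest of those 3 had 6.86, 6.88, 6.80 and 6.72 in KO, against 7.94, 8.04 and 7.25 in WT, so the groups did not overlap. It differed by -0.93 (SE 0.20), with an adjusted p of 0.088 over the 18776 probes fitted singly, and the others by -0.36 (SE 0.24) and -0.27 (SE 0.20).

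Among the central components, both C4 genes had lower means in KO. C4a and C4b are near-identical neighbours on chromosome 17, so a probe of one can take signal from the other, and probe sequences were not used here. C4a had 12.32, 12.41, 12.22 and 12.38 in KO, against 12.32, 12.98 and 13.00 in WT. The KO samples were close together, WT replicate 1 lay among them and WT replicates 2 and 3 were higher. The difference was -0.44 (SE 0.19, adjusted p = 0.31), with -0.40 (SE 0.16) at the other measured probe and -0.66 without WT replicate 1. The brightest C4b probe had 11.08, 11.06, 11.07 and 10.83 in KO, against 11.11, 11.41 and 11.19 in WT. The groups did not overlap, although KO replicate 1 and WT replicate 1 were close, and the difference was -0.23 (SE 0.16, adjusted p = 0.55).

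The 2 dimmer C4b probes showed larger differences. The first had 6.50, 6.36, 5.98 and 6.59 in KO, against 7.04, 8.91 and 7.73 in WT, and differed by -1.53 (SE 0.34, adjusted p = 0.096 over the 18776 probes). The second had 5.86, 6.03, 5.72 and 5.98 in KO, against 6.22, 8.22 and 7.38 in WT, and differed by -1.37 (SE 0.35, adjusted p = 0.12 over the same probes). In both, all KO samples were below all WT samples, and WT replicate 2 was the highest and WT replicate 1 the lowest of the WT samples. The size of the C4b difference thus depended on the probe, from -0.23 at the brightest to -1.53 on the log2 scale.

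Over single probes, 6 of the 43 member probes had KO values below all WT values, 14% against 6.53% of all 18776 probes. They were the 3 of C4b, 1 of C4a, 1 of C6 and 1 of Masp2. Since C4a and C4b share sequence, these 6 are not separate observations. None had KO values above all WT values, against 6.36% of all probes. None of the 43 passed an adjusted p under 0.05, against 0.0639% of all probes. At an unadjusted p under 0.05 there were 8 of the 43, against 14.2% of all probes, a somewhat higher share among the member probes.

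**Figure D3:**
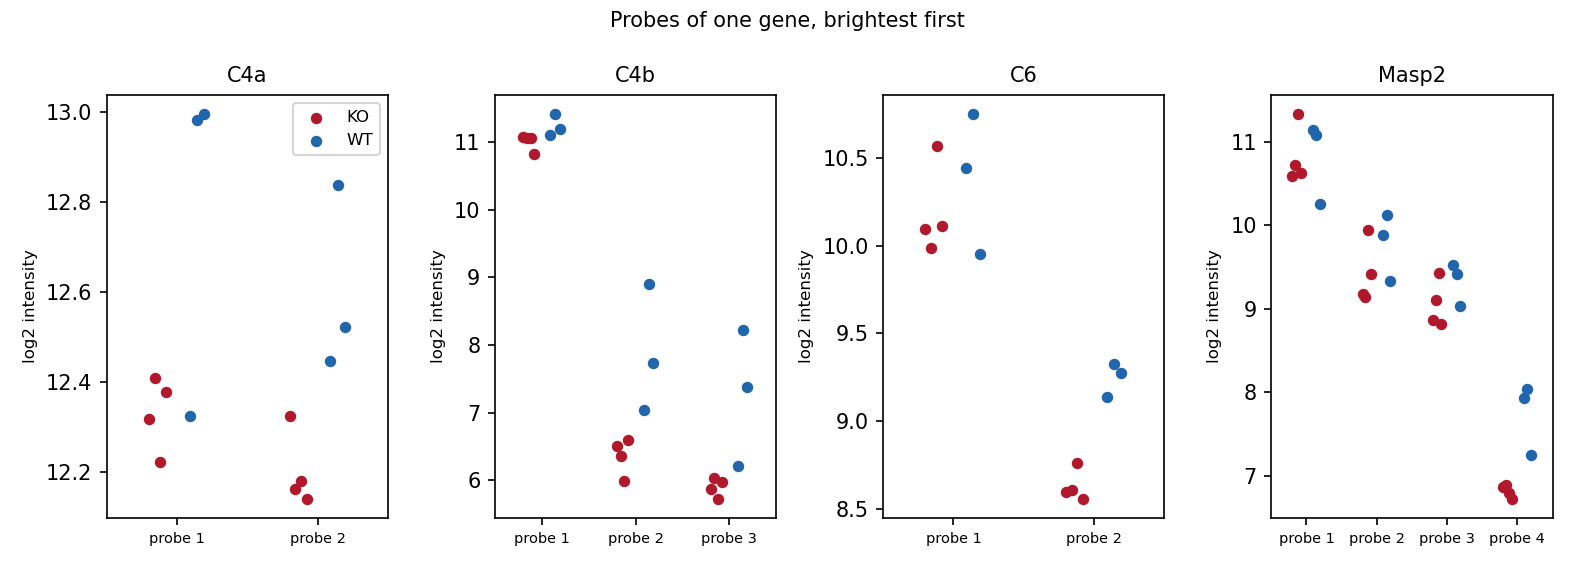
Log2 intensity (vertical axes) of each measured probe of C4a, C4b, C6 and Masp2, brightest first, with 1 point per KO (red) or WT (blue) sample. The dimmer probes of C4b and C6 and 1 of those of Masp2 have KO values below every WT value, while the brightest probes of C6 and Masp2 overlap.

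Cfb, the gene of factor B and an acute phase protein, had 10.07, 10.07, 10.54 and 10.33 in KO, against 10.63, 10.63 and 10.25 in WT. WT replicates 1 and 2 were the highest of all samples, and the difference was -0.25 (SE 0.18, adjusted p = 0.56). Cfp, the gene of properdin, which stabilises the alternative pathway convertase and comes from myeloid cells, had 9.39, 9.49, 9.66 and 9.89 in KO, against 9.48, 9.06 and 8.41 in WT. KO replicate 1 was below WT replicate 1, and the other KO samples were above all WT samples. The difference of 0.62 (SE 0.24, 95% interval 0.10 to 1.14, adjusted p = 0.26) was 0.33 without WT replicate 3, the sample of lowest Cfp.

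The terminal components, which form the membrane attack complex, showed no difference past the threshold with all arrays. Of 7 measured, 6 had lower means in KO, with a median of -0.12. C8b, which encodes the beta chain of C8, had 10.51, 10.45, 11.70 and 10.57 in KO, against 11.29, 11.52 and 10.81 in WT. KO replicate 3 was the highest of all samples and the other KO samples were the lowest. With all arrays the difference was -0.40 (SE 0.30, adjusted p = 0.58). C9, the pore-forming component, had 11.78, 11.77, 12.43 and 11.54 in KO, against 12.15, 12.30 and 12.11 in WT. Here too KO replicate 3 was the highest sample and the other KO samples were below all WT samples. The difference was -0.31 (SE 0.21, adjusted p = 0.54), and the 2 other C9 probes gave -0.34 (SE 0.24) and -0.50 (SE 0.31).

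C6 had 10.09, 9.99, 10.57 and 10.11 in KO, against 10.44, 10.75 and 9.95 in WT, at its brightest probe. KO replicate 3 was again high and WT replicate 3 was the lowest sample, and the difference was -0.19 (SE 0.22, adjusted p = 0.74). It was -0.0056 without WT replicate 2 and -0.40 without WT replicate 3. The dimmer C6 probe followed genotype more closely, with 8.60, 8.61, 8.76 and 8.56 in KO, against 9.14, 9.33 and 9.28 in WT. It did not overlap between the groups and differed by -0.62 (SE 0.15, adjusted p = 0.11 over the 18776 probes). Hc, the gene of C5, had 10.18, 10.30, 10.66 and 10.16 in KO, against 10.48, 10.55 and 9.79 in WT, a difference of 0.05 (SE 0.21) that was -0.19 without WT replicate 3. C8g (-0.12, SE 0.21) and C8a (-0.07, SE 0.19), the genes of the other C8 chains, overlapped between the groups. C7, at -0.10 (SE 0.16), was above background on 4 arrays at its brightest probe and on 1 at each of its 2 others, so it was close to undetected.

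KO replicate 3 was the highest KO sample in 6 of the 7 terminal genes, C8a being the exception, and WT replicate 3 was the lowest WT sample in 6 of 7, the dim C7 being the exception. Over the 19 liver-made components, each of these applied to 13. Saa1 and Orm2, acute phase genes of hepatocytes picked after their values were seen, had the opposite pattern over the same arrays, which not all of the acute phase list shared. Of its 12 genes, KO replicate 3 was the lowest KO sample in 7 and the highest in 3, Itih4, Serpina3n and Il6ra. Saa1, a serum amyloid A gene, had 13.86, 14.10, 12.00 and 14.60 in KO, against 12.52, 12.82 and 14.56 in WT. Orm2, an orosomucoid gene, had 12.02, 12.17, 10.60 and 12.37 in KO, against 10.49, 10.38 and 11.94 in WT. In both, KO replicate 3 was far below the other KO samples and near WT replicates 1 and 2, and WT replicate 3 was within or just below the range of the other KO samples. Over all 12 acute phase genes the summed intensity was 104100 to 158500 in KO and 107600 to 156300 in WT. The relation of this pattern to the complement levels was not tested, since it was seen in the same 7 arrays.

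**Figure D4:**
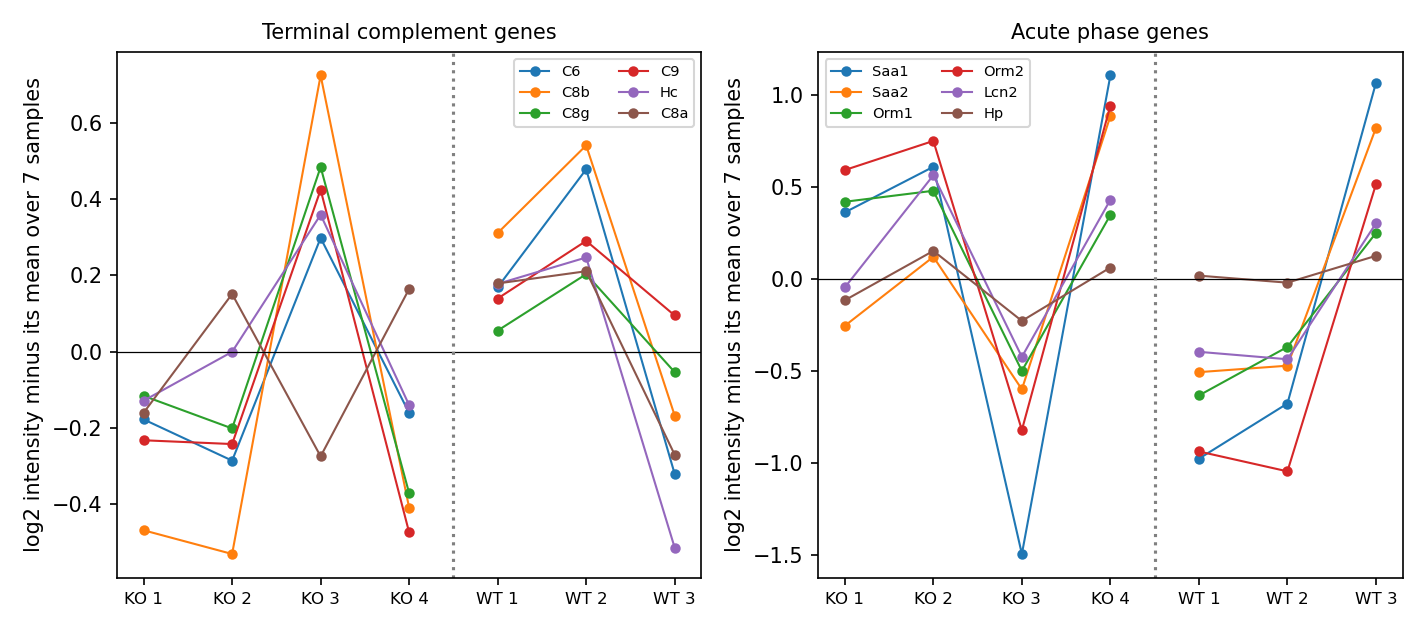
Log2 intensity of 6 terminal complement genes (left) and 6 acute phase genes (right) in each sample, minus the gene's own mean over the 7 samples. The 6 acute phase genes are part of a list of 12. Itih4, Serpina3n and Il6ra of that list, in which KO replicate 3 was the highest KO sample, are not drawn. Lines only join the points of a gene within a genotype. KO replicate 3 is high and WT replicate 3 low in most terminal genes, and the reverse holds for Saa1 and Orm2.

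Without KO replicate 3 and WT replicate 3 together, 17 of the 19 liver-made components again lay below 0, and their median was -0.47. C8b then passed, at -0.89 (SE 0.17, adjusted p = 0.022), and so did Fcna, at 1.13 (SE 0.22, adjusted p = 0.023). C6 and C9 were both at -0.53 (SE 0.17, adjusted p = 0.11), Mbl2 at -0.97 (SE 0.27, adjusted p = 0.067) and C2 at -0.66 (SE 0.20, adjusted p = 0.087). Cfb was at -0.48, Cfi and Masp2 at -0.47, C8g at -0.36 and Hc at -0.30, with adjusted p from 0.13 (Masp2) to 0.32 (Hc). That fit called 2 of the 27 members and 569 genes, 4.31% of those tested, a much higher background than the 0.0682% with all arrays. At an unadjusted p under 0.05 there were 11 of the 27 members in it, against 21.7% of all genes. In the 5 samples left, the summed intensity of the 12 acute phase genes was 124500 to 158500 in KO and 107600 to 111100 in WT, so genotype and that difference cannot be told apart in them. By gene, 7 of the 12 had a higher and 5 a lower mean in KO there. Neither gene passed when only 1 of the 7 arrays was left out.

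The start-site windows of C8b and C9 are shown because these genes had their highest level in the same KO sample. They span 250 bases before to 50 bases after the annotated start (RefSeq, GRCm38.p6), at chr4:104766067-104766366 (plus strand) for C8b and chr15:6445096-6445395 (plus strand) for C9. Capitals mark matches on either strand to GTTAAT (HNF1, a hepatocyte factor) or TTGCNNAA (C/EBP, a family active in the acute phase). 
C8b: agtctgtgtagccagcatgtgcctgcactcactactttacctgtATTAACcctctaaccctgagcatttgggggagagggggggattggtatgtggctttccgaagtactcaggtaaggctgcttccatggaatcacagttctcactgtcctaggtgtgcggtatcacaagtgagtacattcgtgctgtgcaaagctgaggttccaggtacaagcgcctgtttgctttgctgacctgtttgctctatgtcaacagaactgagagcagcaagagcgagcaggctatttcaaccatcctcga
C9: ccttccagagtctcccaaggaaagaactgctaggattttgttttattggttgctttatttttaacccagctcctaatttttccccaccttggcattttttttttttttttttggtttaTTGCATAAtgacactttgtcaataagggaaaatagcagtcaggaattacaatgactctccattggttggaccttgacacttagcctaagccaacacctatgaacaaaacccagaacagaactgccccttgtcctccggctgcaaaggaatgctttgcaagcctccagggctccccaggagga
C8b held 1 match to GTTAAT at bases 45 to 50 of the window and C9 held 1 to TTGCNNAA at bases 119 to 126. GTTAAT was present in 8 of the 27 member windows (29.6%), which cover 25 of the 32 genes, against 7.1% of all 32851 windows. TTGCNNAA was present in 5 (18.5%), all of liver-made components, against 10.8%. CAAAGTNCA (HNF4) and an NF-kB motif of 10 letters were present in 0 member windows, against 1.4% and 0.4% of all. Both windows held no other searched motif, and a match of letters describes the window only.

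The soluble and membrane regulators, 5 tested, showed no difference past the threshold, and their 95% intervals lay between -0.61 and 0.80. Cfi, the gene of factor I, which inactivates C3b and C4b, had 11.88, 12.04, 12.33 and 12.00 in KO, against 12.59, 12.29 and 11.83 in WT. The WT samples enclosed all KO samples, and the difference was -0.17 (SE 0.20, adjusted p = 0.75). C4bp, the cofactor that binds C4b, had 10.75, 11.19, 10.61 and 11.45 in KO, against 10.76, 10.99 and 11.30 in WT. Its difference was -0.02 (SE 0.22, 95% interval -0.51 to 0.48). The other bright probe gave 0.28 (SE 0.29) and a dim probe, above background on 4 arrays, -0.25 (SE 0.18). Cd55, which encodes decay-accelerating factor, had 6.61, 6.86, 6.91 and 7.43 in KO, against 6.51, 6.75 and 6.51 in WT. KO replicate 1 lay below WT replicate 2, and the difference was 0.36 (SE 0.20, adjusted p = 0.44), or 0.20 without KO replicate 4. Cr1l, the gene of the rodent regulator Crry, differed by -0.10 (SE 0.17), and Cd59a, whose product blocks pore formation, by -0.01 (SE 0.17, 95% interval -0.38 to 0.37).

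The C1q chains, which macrophages make, overlapped between the groups. C1qa had 6.03, 6.38, 5.70 and 6.21 in KO, against 6.43, 6.20 and 5.71 in WT, a difference of -0.03 (SE 0.22). C1qb had 9.22, 8.99, 8.99 and 9.66 in KO, against 9.19, 8.99 and 8.79 in WT. C1qc had 8.22, 8.29, 8.28 and 8.93 in KO, against 8.30, 8.17 and 7.90 in WT. In both of these KO replicate 4 was the highest sample and WT replicate 3 the lowest. The remaining samples ran from 8.99 to 9.22 in C1qb and from 8.17 to 8.30 in C1qc. The differences were 0.23 (SE 0.20, adjusted p = 0.65) for C1qb and 0.31 (SE 0.20, adjusted p = 0.52) for C1qc, and without KO replicate 4 they were 0.08 and 0.14.

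The windows of C1qb and C1qc, neighbours on chromosome 4, are shown because their levels followed each other over the samples. They lie at chr4:136886151-136886450 for C1qb and chr4:136892865-136893164 for C1qc, both on the minus strand (RefSeq, GRCm38.p6). Capitals mark matches on either strand to GAGGAA, a core of PU.1, a myeloid transcription factor. 
C1qb: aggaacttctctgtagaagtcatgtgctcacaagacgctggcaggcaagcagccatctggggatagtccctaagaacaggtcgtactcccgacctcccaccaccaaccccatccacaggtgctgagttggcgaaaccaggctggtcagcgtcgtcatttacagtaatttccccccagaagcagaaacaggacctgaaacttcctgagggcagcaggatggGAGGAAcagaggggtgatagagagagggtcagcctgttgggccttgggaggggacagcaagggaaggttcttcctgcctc
C1qc: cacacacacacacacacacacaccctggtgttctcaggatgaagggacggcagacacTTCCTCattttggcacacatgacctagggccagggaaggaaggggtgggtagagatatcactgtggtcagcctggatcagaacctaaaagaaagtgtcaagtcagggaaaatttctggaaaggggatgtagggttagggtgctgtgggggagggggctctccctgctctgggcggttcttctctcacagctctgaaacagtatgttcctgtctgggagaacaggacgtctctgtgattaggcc
Each held 1 match, at bases 221 to 226 of the C1qb window and on the other strand at bases 58 to 63 of the C1qc window. GAGGAA was present in 6 of the 27 member windows (22.2%), those of C1qb, C1qc, Cfp, Fcna, C1ra and Cd59a, against 28.3% of all windows, so it is a common word.

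Markers of Kupffer cells and macrophages lay on the same side as the C1q and myeloid genes. Of 20 listed, 18 were measured (Vsig4 among them), and 17 of these had higher means in KO, with a median log2 difference of 0.39. Their summed intensity was 6123 to 9641 in KO and 3396 to 5548 in WT, without overlap. This sum leans most on Slc40a1, the brightest of them by mean, which differed by 1.20 (SE 0.28, adjusted p = 0.11). Their mean log2 intensity was 7.58 to 8.08 in KO and 6.98 to 7.55 in WT, so KO replicate 1 and WT replicate 1 nearly met. The summed intensity of the 5 C1q and myeloid complement genes was 2088 to 3231 in KO and 1689 to 1997 in WT, without overlap. The mean log2 intensity of these 5 overlapped, at 8.26 to 8.91 in KO and 8.01 to 8.32 in WT. Of single markers, Clec4f differed by 0.22 (SE 0.19) and Timd4 by 0.47 (SE 0.23). Marco had the largest difference of the list, 1.71 (SE 0.35, adjusted p = 0.088). Msr1 was the marker with a lower mean in KO, at -0.20 (SE 0.19), and Cd5l was not above background. Neutrophil and monocyte markers, 5 of 10 measured, had summed intensities of 450.1 to 1014 in KO and 341.3 to 1412 in WT, which overlapped. The part of macrophage content in the complement values was not tested. C3ar1 and C5ar1, the anaphylatoxin receptor genes of myeloid cells, were above background on 1 and 0 arrays.

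**Figure D5:**
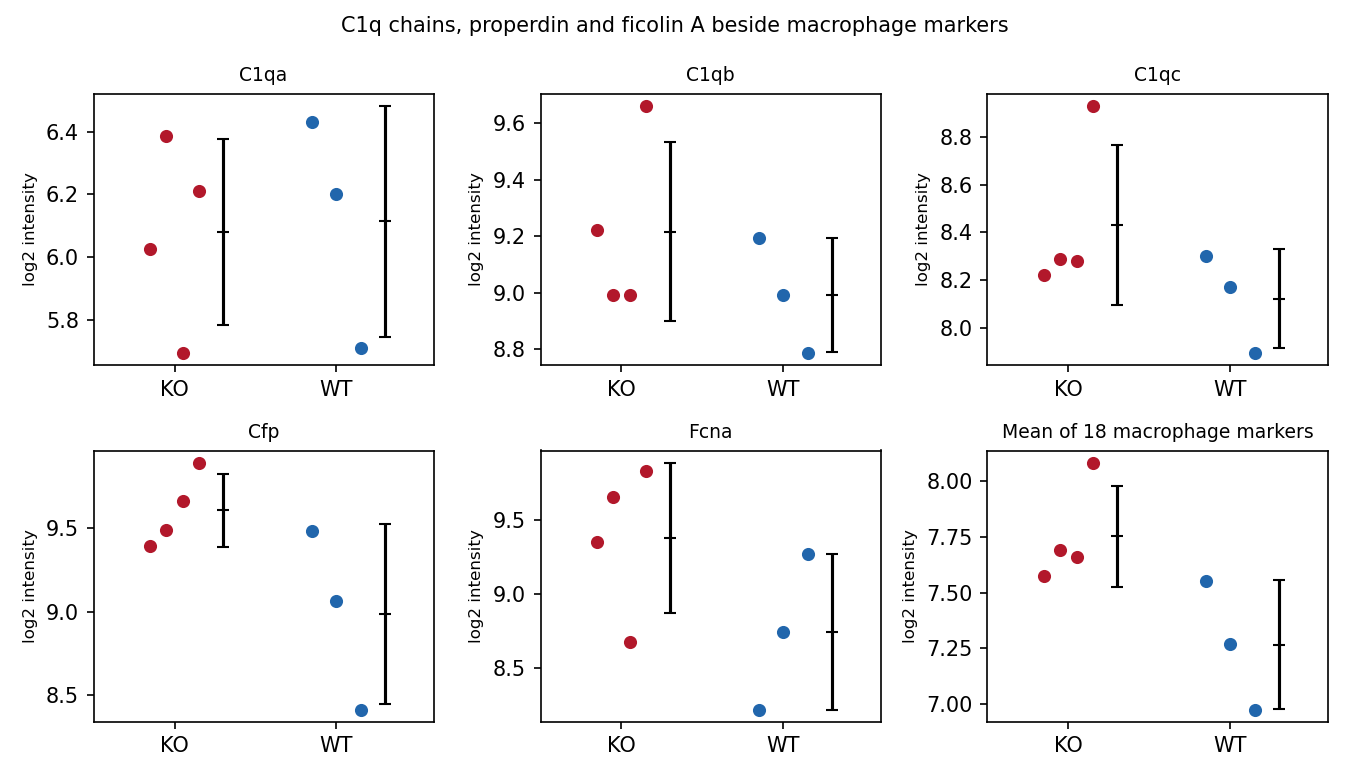
Log2 intensity of the C1q chains, properdin (Cfp), ficolin A (Fcna) and the mean of 18 macrophage markers, with 1 point per KO (red) or WT (blue) sample and black marks for the mean and SD. KO replicate 4 is the highest sample in C1qb, C1qc, Cfp, Fcna and the markers, and the groups overlap in every complement gene shown.

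Complement genes outside the member list had differences of similar size. Of 27 listed, 14 were tested, 4 with a higher and 10 with a lower mean in KO, and their median was -0.15. None passed the adjusted threshold, against 0.0682% of all genes. At an unadjusted p under 0.05, 1 was higher and 2 were lower, against 8.25% and 6.52% of all genes. Vsig4, a C3b receptor of tissue macrophages that is also one of the macrophage markers, had 9.34, 9.43, 9.09 and 10.25 in KO, against 8.81, 8.80 and 8.73 in WT. All KO samples were above all WT samples, as in 7.62% of all genes, and the difference was 0.75 (SE 0.24, adjusted p = 0.19). Cpn1, which encodes the catalytic chain of the carboxypeptidase N that inactivates anaphylatoxins, had 10.87, 10.96, 11.36 and 10.80 in KO, against 11.89, 11.71 and 11.09 in WT. At its brightest probe it overlapped through WT replicate 3 and differed by -0.57 (SE 0.22, adjusted p = 0.25). This probe passed with array weights (-0.73, adjusted p = 0.030) and without both replicates 3 (-0.93, adjusted p = 0.019). The other measured Cpn1 probe differed by -1.02 (SE 0.19, adjusted p = 0.070 over the 18776 probes). All its KO values were below all WT values, as in 6.53% of all probes. Cpn2, the gene of the enzyme's regulatory chain, differed by -0.61 (SE 0.29), with -0.69 (SE 0.19) at its other probe, which did not overlap. Serping1, the C1 inhibitor gene, differed by -0.27 (SE 0.16), with -0.22 (SE 0.15) at its other probe, which also did not overlap. The complement regulator gene Susd4 differed by -0.86 (SE 0.36) and the collectin gene Colec10 by 0.33 (SE 0.22, or 0.0873 without WT replicate 3). Among the brightest probes of Cpn2, Serping1, Susd4 and Colec10, the smallest adjusted p was 0.30, for Susd4.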

How the data were processed

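RNA of 7 whole liver samples, 4 KO and 3 WT by their labels, was hybridised to Illumina bead arrays. The deposited values are linear intensities per probe (72.6 to 30878, median 91.1 in KO replicate 1), taken as already normalized between arrays before they were deposited. This was read from the sorted values of the 7 columns, whose median relative difference from those of KO replicate 1 was 0. Partek is named in the submitters' processing notes; its version and settings are not given in the sources used here. A scanner table was left out, since its 14 columns cannot be matched to samples by label, so slide could not be used as a batch.

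Intensities were corrected by normexp (saddle-point, offset 16; limma 3.58.1, R 4.3.3) and log2 transformed. Background ended at an intensity of 93.6, the 0.95 quantile of a normal curve fitted below the mode of 87.5. Of 45281 probes, 18776 exceeded it on at least 3 arrays and were kept. In the platform annotation 34885 probes had 1 symbol, 18 several and 10378 none. RefSeq of GRCm38.p6 matched 34807 by Entrez identifier and changed 0 symbols. The brightest kept probe stood for a gene, and probes without a single symbol (2809 tested) kept their own identifier.

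The contrast of KO and WT was fitted with lmFit and eBayes (limma), without covariates, two-sided, with Benjamini-Hochberg adjustment over all 13193 tests. The single-probe fit over 18776 probes was chosen after seeing the data. Members, lists, motifs and roles were chosen with earlier results of these data known. All members are named, in full for up to 4 of smallest p per role, all C1q chains and the genes beside Ltbr, with up to 6 other pathway genes. Members further described, the single probes and the promoter windows were chosen after their values were seen. The fit was tested on simulated data for KO against WT over 13193 genes: it recovered 7 of 67 genes changed 1.5-fold, 46 of 67 changed 2-fold and 65 of 66 changed 4-fold, with 8 calls among unchanged genes. The simulated data held more changed genes than the real fit called, which eases the adjusted threshold. Their noise was drawn for each gene separately, so it held no variation shared by an array. Recovery in the real data may therefore be lower than these counts. The number of arrays limits the precision (median SE 0.19).

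Further marker lists, without complement results beside them, were those of sinusoidal endothelium (median -0.02, 6 tested), stellate cells and fibroblasts (-0.0038, 7 tested), adipocytes (0.0067, 2 tested), mesothelium (-0.20, 3 tested) and T and B cells (-0.05, 2 tested). Arrays correlated at 0.967 to 0.987 inside a genotype and 0.96 to 0.977 across genotypes.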

Additional observations from a re-analysis of the deposited data

Results flagged for a closer look

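Of 34 named genes, 3 had a KO sample far from the other 3 KO samples, with a gap above Dixon's 95% critical value for the KO range. Chance gives such a gap in about 5% of groups of 4. C8b was at 11.70 in KO replicate 3, against 10.45 to 10.57 in the other KO samples. C1qc was at 8.93 in KO replicate 4, against 8.22 to 8.29 in the others. C4b was at 10.83 in KO replicate 4 at its brightest probe, against 11.06 to 11.08 in the others.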

How the results depend on the processing

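With 7 arrays, the fit found few 1.5-fold changes in simulated data, so differences of that size were mostly not detectable. Of 20 alternatives, those that called complement members were array weights (1, C1rl) and leaving out both replicates 3 (2, C8b and Fcna). Each of these also called 1 other pathway gene, Cpn1. Member counts at an unadjusted p under 0.05, 3 of 27 as reported, varied too. The highest was 11 without both replicates 3, against 21.7% of all genes. There were 10 with array weights (25.9% of all genes), 6 without KO replicate 3 (16.3%) and 5 with the mean of kept probes (13.8%). The lowest was 2, for example without KO replicate 2 (13.5%) or WT replicate 2 (8.58%). Genes called, 9 as reported, became 955 with array weights, 569 without both replicates 3, 81 at an adjusted p under 0.10, 19 with no filter on dim probes, 4 with no background correction, 3 with the mean of kept probes, 2 with a trended robust variance, 1 with probes above background on all 7 arrays, and 2 to 5 with 1 array left out. The cause was not tested, other than that the filters changed the number tested to 29453 and 9285. The median of the liver-made components was -0.47 without both replicates 3 and -0.32 to -0.13 with 1 array left out.

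Replicate numbers did not pair the samples, with correlations of same-numbered deviations of -0.195, -0.044 and -0.298. The replicate block called 2 genes as a random and 3 as a fixed term, and 0 members in both.

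Directions turned only among differences near 0 that passed in no fit. With 1 array left out, the ranges were -0.24 to 0.13 for C1qa, -0.55 to 0.10 for C2, -0.17 to 0.13 for C4bp, -0.22 to 0.0159 for C8a, -0.10 to 0.0666 for Cd59a, -0.38 to 0.0027 for Cfi, -0.22 to 0.006 for Cr1l, -0.19 to 0.19 for Hc, -0.0549 to 0.23 for Masp1, -0.29 to 0.15 for Masp2 and -0.24 to 0.0613 for Mbl1. C4bp was at 0.0026 with the mean of kept probes, 0.0078 with the random block and 0.26 without both replicates 3. Hc was at -0.16 with array weights and -0.30 without both replicates 3. Cd59a was at 0.0079 with the random block, Masp1 at -0.0014 and Masp2 at 0.0585 with the fixed block. The causes were not tested.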
